A study of Mus musculus with 18 samples.

Results

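The cytosolic ribosomal protein genes are the 49 genes, of 18193 named on the arrays, whose probe sets carried a single symbol made of Rpl or Rps and a number, or one of the symbols Rplp0, Rplp2 and Rpsa. They comprised 26 genes named for the large subunit and 23 named for the small subunit, and each was represented by its brightest probe set, judged by the mean over 18 arrays. The arrays, 1 per mouse, were Affymetrix mouse expression arrays hybridised with RNA of thymocytes or of tumour masses. The tumours came from 8 CD4Cre-Ctnnbex3 mice with lymphoma, and the thymocytes from 5 CD4Cre-Ctnnbex3 mice sampled before their T cells had transformed and from 5 control mice. In the CD4Cre-Ctnnbex3 line, Cre driven by Cd4 regulatory sequences acts in thymocytes on an allele of Ctnnb1, the beta-catenin gene, whose recombined form yields a protein that escapes degradation. The series' design text calls the controls LckCre mice, the sample labels call them wild type, and whether they carried a Cre transgene was not settled. A comparison with them therefore spans the Ctnnb1 allele and the Cre line together, whereas lymphomas and mice before transformation shared both. The ages of the mice were not given in the sources used here, and RNA of tumour masses or of thymocytes was measured in bulk, so that fewer cells of a type and less RNA per cell cannot be told apart.

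Each cytosolic ribosome carries 1 copy of most ribosomal proteins, divided between a small subunit, which decodes the mRNA, and a large subunit, which joins amino acids. The subunits are put together in the nucleolus by assembly factors that are not part of the finished ribosome. Ribosomal protein mRNAs are among the most abundant in proliferating cells and begin with a C followed by a run of pyrimidines, the terminal oligopyrimidine (TOP) tract, through which the kinase mTOR and the RNA-binding protein Larp1 control their translation. Several ribosomal proteins have second genes, or paralogs, with expression of their own. In the mouse thymus, Rpl22 is known to be needed for the development of T cells that carry the alpha-beta receptor, and its paralog Rpl22l1 can take its place in the ribosome.

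Signals are given as the deposited linear intensities, with values under a floor of 53.5 (log2 5.74) raised to it. Of the 49 genes, 45 were above an intensity of 109 on at least 5 arrays and were tested in limma beside 14019 genes in all, with p-values adjusted over all of them and genes called at an adjusted p under 0.05. The probe sets of the other 4 were too dim, which does not show that the genes were silent. Rps16, a small-subunit protein gene, and the paralogs Rpl39l and Rpl3l were at the floor in every mouse before transformation and in every control, and at most 62.7 in any lymphoma. Rps4l, a gene related to Rps4x, lay at 69.8 to 104 in the 8 lymphomas, with a median of 97.2, against 1 mouse above the floor before transformation (78.3) and 1 control (56.7). Another 28 ribosomal protein symbols, among them Rpl5, Rpl10, Rpl3 and Rplp1, occurred only on probe sets that list several symbols and are not named with values. Ribosomal protein genes have many near-identical pseudogene copies. Of the probe sets used here, 13 belong to the class (_x_at) in which some probes match other transcripts, and 2 to the class (_s_at) shared by several transcripts, so that part of their signal may come from copies.

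The median signal of the arrays lay between 125 and 166, and the arrays of the 18 mice correlated at r of 0.834 to 0.987 with each other. The T-lineage identity of the samples was checked with 8 measured markers (Cd3d, Cd3e, Cd3g, Thy1, Cd4, Cd8a, Ptcra and Rag1), whose summed signal was 14000 to 24700 in lymphomas, 34500 to 53600 before transformation and 42800 to 48200 in controls. All 8 fell in lymphomas against both other groups, and Ptcra was at the floor in every lymphoma. The 5 granulocyte markers summed to 952 to 3290 in lymphomas, 695 to 1620 before transformation and 2740 to 9250 in controls. The 5 macrophage markers summed to 2240 to 6540, 1130 to 2730 and 1670 to 3000 in the same groups, the 5 stroma and vessel markers to 791 to 4950, 890 to 1740 and 812 to 993, and the 4 measured B-cell markers to 478 to 4480, 471 to 2070 and 857 to 1130. The part of these cells in the results below was not tested.

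In lymphomas against mice before transformation, 10 of the 45 tested genes rose (22.2%) and 3 fell (6.67%). Over all genes tested 16.0% rose and 18.3% fell, so the share that rose was near the background and the share that fell was below it. The median log2 difference was 0.00 over the 45 genes and -0.03 over all genes. For 31 of the 45 genes the difference was smaller than 0.2 in size, beside 4774 of all 14019 genes. The 10 risers were the large-subunit protein genes Rpl14, Rpl37, Rpl12 and Rpl8, the small-subunit protein genes Rps6, Rps19 and Rpsa, and all 3 tested paralogs, Rpl22l1, Rpl7l1 and Rps27l. The 3 that fell, Rps29, Rps10 and Rps7, encode small-subunit proteins and made up 15% of 20 tested small-subunit genes, near the 18.3% of all genes. In 4 genes (Rpl14, Rps6, Rpl7l1 and Rpsa) every lymphoma was above every mouse before transformation, as in 6.67% of all genes, and in 2 (Rps10 and Rps7) every lymphoma was below, as in 8.85%. With quantile normalization between the arrays the split was 18 higher (40%) and 0 lower, beside 22.7% and 15.8% of all genes. The share that rose was thus above the background under that scaling. With each array centred on its median 10 were higher (22.2%) and 0 lower, beside 19.1% and 13.5%. The median of the ribosomal protein genes relative to that of all genes was 0.09 with quantile normalization and 0.03 with centred arrays, as it was without rescaling.

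**Figure D1:**
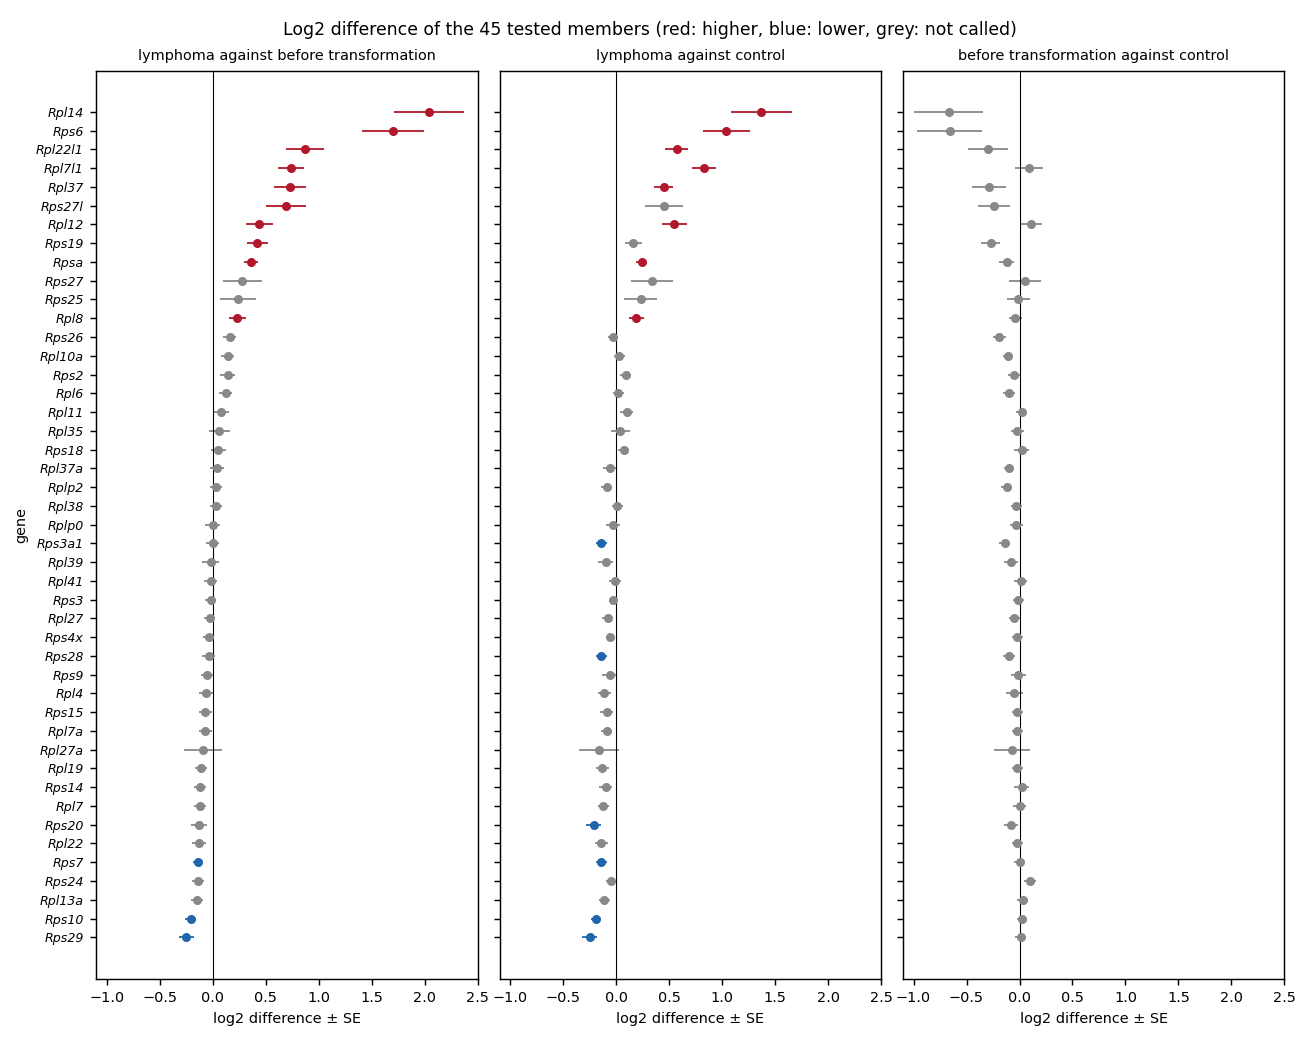
Log2 difference with its standard error (horizontal axis) of the 45 tested ribosomal protein genes, ordered by the comparison of lymphomas with mice before transformation, in the 3 comparisons. Red genes rose and blue genes fell at an adjusted p under 0.05; 10 red and 3 blue genes stand in the left panel, 8 and 6 in the middle panel and none in the right panel.

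While 35 of the 45 tested genes had a mean log2 signal of 12 or more, the 2 largest differences came from dimmer probe sets. The largest was that of Rpl14, a protein of the large subunit read by a single probe set with a mean log2 signal of 7.51. Its lowest, median and highest signals in the 8 lymphomas were 192, 328 and 616, against 83.7, 120, 160, 53.5 and 53.5 in mice 1 to 5 before transformation and 195, 154, 95.2, 95.1 and 173 in controls 1 to 5. Every lymphoma lay above every mouse before transformation, whereas lymphoma 7 lay below control 1. The difference from mice before transformation was 2.04 ± 0.33 on the log2 scale (SE), or 4.1-fold (adjusted p = 0.000353), and it is understated because 2 of those mice were at the floor.

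Rps6, the small-subunit protein that S6 kinases phosphorylate, showed the second largest difference. Its probe set had a mean log2 signal of 9.02, and its other probe set, at 6.31, was too dim to be tested. Rps6 lay at 612, 772 and 1415 (lowest, median and highest) in lymphomas, at 334, 430, 390, 130 and 198 before transformation and at 566, 514, 332, 326 and 453 in controls. The lymphomas did not overlap with either group. The difference from mice before transformation was 1.70 ± 0.29, or 3.25-fold (adjusted p = 0.000532). As for Rpl14, no brighter probe set was at hand to set beside it.

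Rpl37, a large-subunit protein, had 3263, 3794 and 4680 as its lowest, median and highest signals in lymphomas, against 1861, 1917, 3596, 1962 and 2508 before transformation and 2619, 2600, 2907, 2802 and 3077 in controls. Mouse 3 before transformation, at 3596, lay within the range of the lymphomas, and the other 4 mice of its group lay below all lymphomas and all controls. The log2 difference between lymphomas and mice before transformation was 0.73 ± 0.15 (adjusted p = 0.00157). Rpl12, which sits at the base of the stalk of the large subunit, lay at 578, 728 and 896 in lymphomas, at 606, 589, 510, 461 and 513 before transformation and at 523, 513, 502, 438 and 493 in controls. Lymphomas 6 and 8, at 596 and 578, lay within the range of the mice before transformation, and the difference was 0.44 ± 0.13 (adjusted p = 0.0152). Rpl8, another large-subunit protein, differed by 0.23 ± 0.08 (adjusted p = 0.0342). Its call was lost in 6 of 13 fits that left out 1 mouse, namely without lymphoma 5, 7 or 8 or without mouse 1, 2 or 5 before transformation.

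Rpsa, a small-subunit protein, is also known as the laminin receptor precursor. Its lowest, median and highest signals were 9583, 10128 and 11393 in lymphomas, against 7288, 8493, 9042, 7533 and 7323 before transformation and 8946, 8748, 8496, 8179 and 8688 in controls. All lymphomas were above all 10 other mice. The difference from mice before transformation was 0.36 ± 0.07 (adjusted p = 0.00111), while the other, dimmer probe set of Rpsa did not pass (0.26 ± 0.12, 0.118). Rps19, the small-subunit protein whose loss causes Diamond-Blackfan anaemia in humans, lay at 5448, 5794 and 7297 in lymphomas, at 3872, 4711, 5575, 4173 and 4218 before transformation and at 5447, 5458, 5480, 5225 and 5312 in controls. Mouse 3 before transformation again overlapped with the lymphomas, and the other 4 lay below every lymphoma and every control. The difference from mice before transformation was 0.42 ± 0.10 (adjusted p = 0.00529).

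The 3 genes that fell were among those with the highest signals, and their differences were small. Rps29 lay at 8825, 10110 and 11564 (lowest, median and highest) in lymphomas, against 12229, 11616, 10874, 12544 and 12427 before transformation and 11906, 11686, 12260, 11792 and 11635 in controls. Lymphoma 7 overlapped with mouse 3 before transformation, and the difference was -0.25 ± 0.07 (adjusted p = 0.0164). Rps10 lay at 8294, 8508 and 9395 in lymphomas, against 9910, 9850, 9881, 10128 and 10108 before transformation and 10135, 9957, 9690, 9642 and 9783 in controls. Neither group overlapped with the lymphomas, and the difference from mice before transformation was -0.21 ± 0.05 (adjusted p = 0.00587). Rps7, which is known to bind the p53 regulator Mdm2, lay at 7953, 8800 and 8991 in lymphomas, against 9642, 9423, 9256, 9901 and 9796 before transformation and 9823, 9816, 9751, 9165 and 9377 in controls. All lymphomas were below all other mice, but the difference of -0.14 ± 0.05 (adjusted p = 0.0475) was lost in 11 of 13 fits that left out 1 mouse (it held without lymphoma 2 or without mouse 3 before transformation).

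The falls of Rps29, Rps10 and Rps7 were not called with quantile normalization (-0.08, -0.06 and -0.01) or with arrays centred on their median (-0.17, -0.13 and -0.06). Nor did all probe sets of these genes fall. The other 5 probe sets of Rps10 did not pass against mice before transformation (-0.40 to 0.07, with 2 above 0), the other probe set of Rps7 differed by 0.12 ± 0.09 (adjusted p = 0.301), and of the other 2 of Rps29 one fell (-0.18 ± 0.06, 0.0313) and one did not pass (-0.13 ± 0.06, 0.0981). The top of the intensity range also differed between the groups: the signal ranked 50 from the top of the array was 8283 to 8875 in lymphomas, 9035 to 9812 before transformation and 9030 to 9741 in controls, and the part of this in the falls was not tested.

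**Figure D2:**
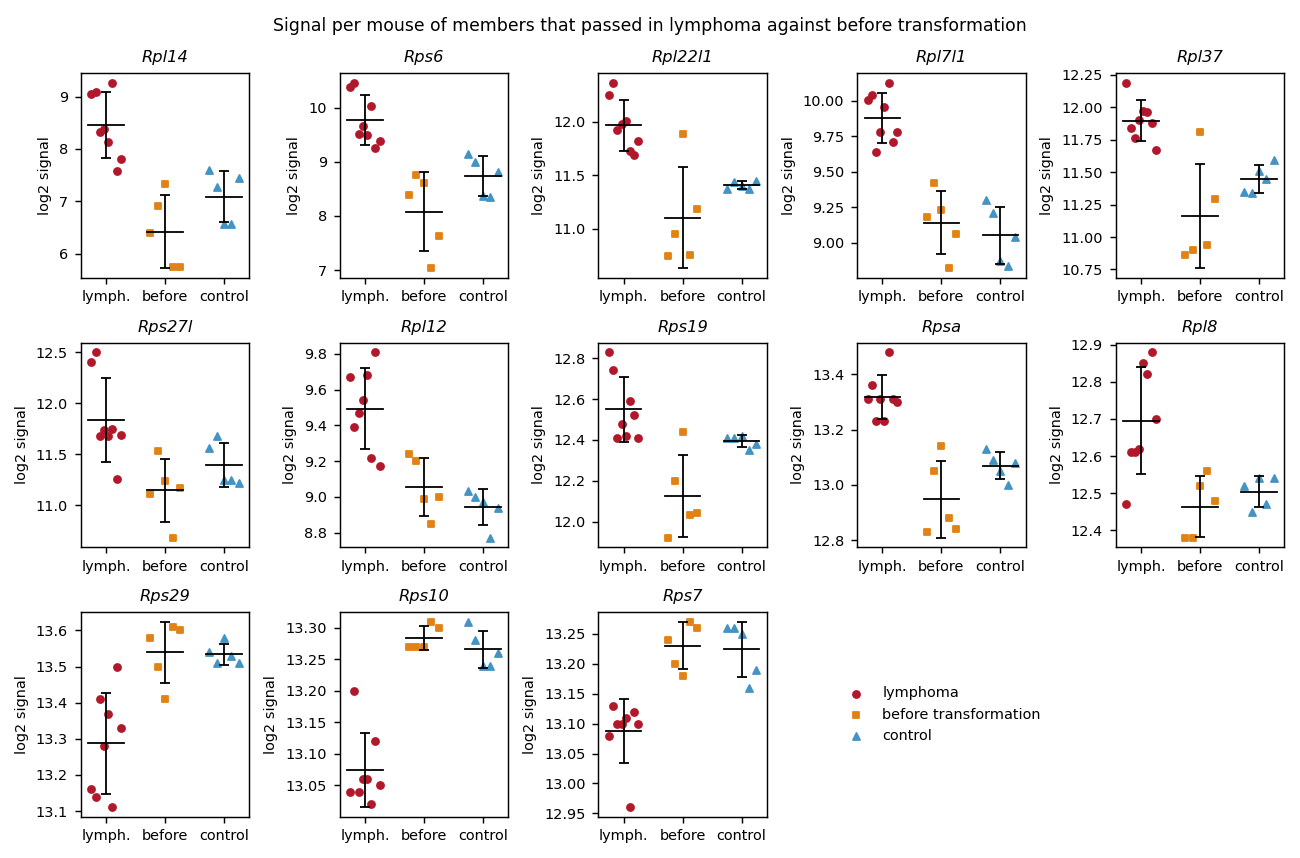
Log2 signal (vertical axis) of the 13 ribosomal protein genes that passed in lymphomas against mice before transformation, with a point for each of 8 lymphomas, 5 mice before transformation and 5 controls and bars for the mean ± SD. For Rpl37, Rps19 and Rpl22l1 mouse 3 before transformation stands above the other 4 of its group; Rps10 and Rps7 are lower in all lymphomas than in any other mouse.

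The sequence at the start of these genes is shown because a TOP tract is the feature that ribosomal protein mRNAs are known for. RefSeq windows of 250 bases before to 50 after the annotated start (GRCm38.p6) were at hand for 43 of the 49 genes. From each of the 9 genes that changed in the same direction against mice before transformation and against controls and had a single window, 10 bases before to 20 after the start are given below, 5′ to 3′ on the gene's strand, with the first C followed by at least 4 pyrimidines, and the run it opens, in capitals (Rpl8 and Rps29 are named only).
Rpl14, higher, chr9:120571507-120571536, + strand: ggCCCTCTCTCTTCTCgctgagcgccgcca
Rps6, higher, chr4:86857348-86857377, - strand: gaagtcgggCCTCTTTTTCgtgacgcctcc
Rpl12, higher, chr2:32961702-32961731, + strand: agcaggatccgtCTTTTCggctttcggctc
Rpl22l1, higher, chr3:28805498-28805527, + strand: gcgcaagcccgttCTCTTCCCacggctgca
Rpl37, higher, chr15:5116603-5116632, + strand: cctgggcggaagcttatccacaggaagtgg
Rpl7l1, higher, chr17:46782637-46782666, - strand: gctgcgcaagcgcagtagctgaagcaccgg
Rpsa, higher, chr9:120127756-120127785, + strand: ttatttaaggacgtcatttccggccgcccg
Rps10, lower, chr17:27635225-27635254, - strand: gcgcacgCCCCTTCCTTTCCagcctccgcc
Rps7, lower, chr12:28635934-28635963, - strand: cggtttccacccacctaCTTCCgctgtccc
A run covered the annotated start in Rpl14 and Rps6, which rose, and in Rps10, which fell. It began a few bases after the start in Rpl12, Rpl22l1 and Rps7, and this window held none in Rpl37, Rpl7l1 and Rpsa.

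Over all 43 genes, 8 (18.6%) had a C at the annotated start followed by at least 4 pyrimidines, against 2.67% of 17492 protein-coding genes. A C followed by at least 6 pyrimidines anywhere from 20 bases before to 50 after the start, a motif chosen after the data were seen, stood in 33 of the 43 genes (76.7%), against 33.3% of protein-coding genes. Among the 9 genes with a window that rose in lymphomas against mice before transformation 7 held it (Rpl12, Rpl14, Rpl22l1, Rpl37, Rps19, Rps27l and Rps6), and among the 2 with a window that fell both did (Rps10 and Rps7). The Ets motif CCGGAAG, sought on both strands of the whole window, stood in 21 of 43 genes (48.8%), against 12.9% of protein-coding genes. The Yy1 motif AAGATGG stood in 8 (18.6% against 7.18%). The E-box CACGTG, which Myc can bind, stood in 4 genes (Rpl13a, Rpl14, Rpl19 and Rps19), and 9.3% was near the 8.91% of all protein-coding genes. A match describes letters in a window and is neither a binding site nor a mapped start.

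Paralogs and the genes they resemble were read side by side. Rpl22l1 lay at 3294, 3958 and 5286 (lowest, median and highest) in lymphomas, at 1710, 1982, 3807, 1716 and 2312 before transformation and at 2643, 2770, 2695, 2641 and 2792 in controls. All lymphomas were above all controls, and mouse 3 before transformation, at 3807, lay among the lymphomas. The difference from mice before transformation was 0.87 ± 0.18, or 1.83-fold (adjusted p = 0.00204). Rpl22 itself lay at 6103, 6720 and 7888 in lymphomas, at 7070, 7351, 7372, 7393 and 7755 before transformation and at 7609, 7641, 7704, 7160 and 7237 in controls. Its difference of -0.13 ± 0.07 did not pass (adjusted p = 0.148). It passed as a fall in 3 of 27 alternatives (adjusted p of 0.0254 to 0.0468). They were mice 3 and up alone (-0.20), without lymphoma 2 (-0.16) and without lymphomas 1 and 2 (-0.18). The last was chosen after the data were seen. With the mean of all probe sets Rpl22 was higher instead (0.31, adjusted p = 0.046). The 3 probe sets of Rpl22 disagreed: the one with a mean log2 signal of 9.24 differed by 0.97 ± 0.21 (adjusted p = 0.00215), and the one at 12.3 by 0.09 ± 0.12 (adjusted p = 0.577).

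Rpl7l1, a relative of Rpl7 that acts in the assembly of the large subunit, lay at 799, 940 and 1117 in lymphomas, at 581, 687, 600, 451 and 533 before transformation and at 631, 590, 468, 460 and 526 in controls. All lymphomas lay above all 10 other mice, with a difference from mice before transformation of 0.74 ± 0.12 (adjusted p = 0.00037). Of its other probe sets one rose (0.63 ± 0.11, adjusted p = 0.00044) and one did not pass (0.39 ± 0.18, 0.114). Rpl7 lay at 6937, 7577 and 7968 in lymphomas, at 8676, 9022, 7669, 7894 and 7828 before transformation and at 8559, 8563, 8197, 7769 and 7832 in controls. The groups overlapped, and its difference of -0.12 ± 0.06 did not pass (adjusted p = 0.146).

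Rps27l, a relative of Rps27 and a known p53 target, lay at 2447, 3364 and 5805 in lymphomas, at 2208, 2960, 2425, 1636 and 2301 before transformation and at 3011, 3271, 2433, 2435 and 2385 in controls. Its highest values, 5413 and 5805, were those of lymphomas 1 and 2. The difference from mice before transformation was 0.69 ± 0.19 (adjusted p = 0.0132), and all 3 of its probe sets rose, by 0.67 to 0.75. Rps27, read by a single dim probe set, lay at 103, 136 and 220 in lymphomas, at 115, 122, 129, 111 and 132 before transformation and at 87.3, 121, 126, 150 and 111 in controls, and did not pass (0.28 ± 0.18, adjusted p = 0.244). Rpl39, whose relative Rpl39l was at the floor in all mice but lymphoma 2, lay at 4834, 5350 and 5941 in lymphomas, at 5540, 5939, 5590, 4675 and 4997 before transformation and at 5899, 5836, 5226, 5377 and 5826 in controls, a difference of -0.02 ± 0.08 from mice before transformation (adjusted p = 0.836).

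The stalk proteins, which recruit translation factors to the large subunit, did not pass in any comparison. Rplp0 lay at 7979, 9526 and 10243 in lymphomas, at 9477, 9810, 8745, 9199 and 9435 before transformation and at 10060, 9893, 9025, 8801 and 9787 in controls. Rplp2 lay at 7961, 8353 and 8847 in lymphomas, at 8086, 7639, 8602, 8495 and 8542 before transformation and at 8878, 8929, 9258, 8660 and 9108 in controls. Lymphomas differed from mice before transformation by 0.00 ± 0.07 in Rplp0 and by 0.03 ± 0.06 in Rplp2 (adjusted p = 0.979 and 0.733). Rpl11, a large-subunit protein that binds Mdm2, lay at 5958, 6307 and 7369 in lymphomas, at 5692, 6256, 6472, 6176 and 5999 before transformation and at 6123, 6015, 6139, 5967 and 5836 in controls. The groups overlapped, and the difference from mice before transformation was 0.08 ± 0.07 (adjusted p = 0.373).

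The calls were spread unevenly over the signal of the probe sets. Of 35 genes with a mean log2 signal of 12 or more, a limit chosen after the data were seen, 3 rose and 3 fell in lymphomas against mice before transformation, with a median difference of -0.02. Of the 10 tested genes under that limit 7 rose and none fell (none at an unadjusted p under 0.05 either), with a median of 0.71. Among all 148 genes at 12 or more, the 35 included, 6.08% rose and 35.1% fell. Among all 13871 tested genes under 12, 16.1% rose and 18.2% fell.

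Probe sets of the same gene often disagreed. The 49 genes had 105 probe sets that carry 1 symbol, with 1 for 25 genes and up to 6 for the others. Some of the 49 also occur on probe sets that list several symbols, which are not counted as theirs anywhere in this text. Of the 96 probe sets tested, 21 rose and 5 fell against mice before transformation, beside 16.0% and 20.2% of all 24364 probe sets tested. Among those with a mean log2 signal between 11 and 12, 8 of 9 rose, with a median of 0.69, where all probe sets in that range had a median of -0.17 and 15.3% rose. The 9 are not separate genes, since they include all 3 probe sets of Rps27l and more than 1 of Rpl27. This band had the largest share of rises: 4 of 7 rose between 9 and 11 and 5 of 17 under 9, beside 16.4% and 16% of all probe sets there. In 14 of 21 genes with more than 1 tested probe set the dimmest had a more positive difference than the brightest, a count not made over all genes. Rps3, a small-subunit protein gene, differed by -0.02 ± 0.05 at its brightest probe set (adjusted p = 0.812), while a probe set with a mean log2 signal of 8.31 rose by 1.78 ± 0.34 (adjusted p = 0.000968). Rpl13a, a large-subunit protein gene, was called both ways, with a probe set at 11.05 that rose by 1.12 ± 0.15 (adjusted p = 8.43e-05) and one at 12.85 that fell by 0.20 ± 0.07 on the log2 scale (adjusted p = 0.038). Dimmer probe sets of Rpl37a (1.09 ± 0.17), Rps18 (0.95 ± 0.23) and Rpl27 (0.55 ± 0.15) rose too, while the brightest of those genes did not pass. Other dim probe sets did not rise, among them those of Rps10 (-0.40 ± 0.17, adjusted p = 0.0737) and Rpl35 (-0.25 ± 0.10, 0.0604). Another of Rps18 (-0.19 ± 0.21, adjusted p = 0.503) and another of Rps3 (-0.18 ± 0.18, 0.466) did not pass either.

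**Figure D3:**
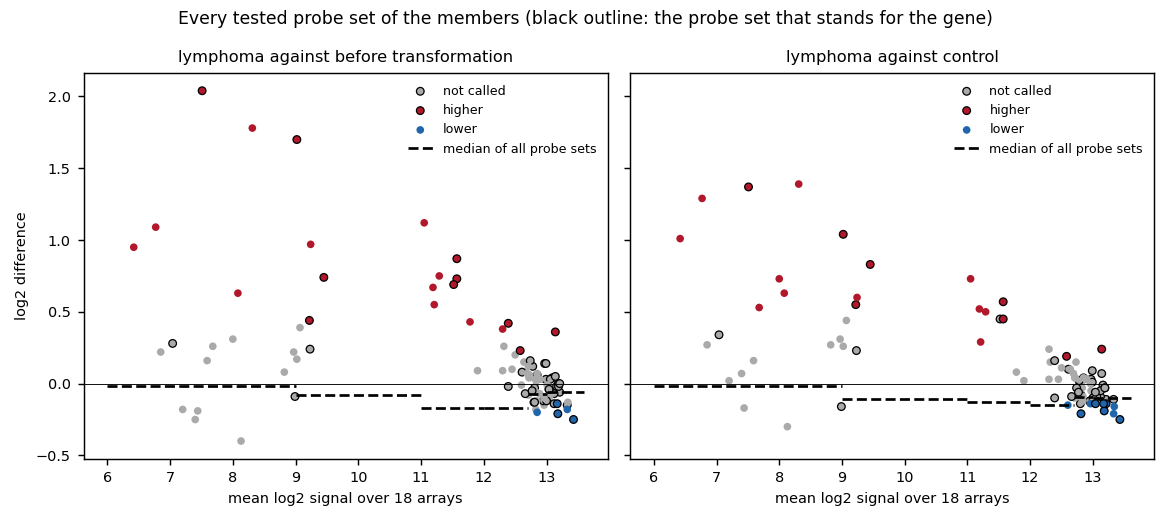
Log2 difference (vertical axis) against the mean log2 signal over 18 arrays (horizontal axis) of the 96 tested probe sets of ribosomal protein genes, for lymphomas against mice before transformation (left) and against controls (right), with the probe set used for the gene outlined in black. Dashed lines give the median of all tested probe sets in each band of signal; the probe sets between 11 and 12 lie above the dashed line, which stands at -0.17 there on the left.

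The 110 probe sets that list a ribosomal protein symbol together with other symbols were added as an unnamed set after the data were seen. Of 106 tested, 24 rose and 11 fell in lymphomas against mice before transformation, beside 16.1% and 20.1% of all probe sets in that fit, with a median of 0.03. Among the 79 with a mean log2 signal of 12 or more 10 rose and 8 fell, and among the 27 under it 14 rose and 3 fell, with medians of 0.00 and 0.35.

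The same genes were then set beside the controls, which share the lymphoma arrays with the comparison above. In lymphomas against controls, 8 of 45 genes rose (17.8%) and 6 fell (13.3%), beside 17.4% and 22.7% of all genes, and the median difference was -0.03 over the genes and -0.03 over all. Quantile normalization gave 18 higher (40%) and 0 lower, beside 25.6% and 18.2% of all genes. Centring gave 8 higher (17.8%) and 0 lower, beside 21.8% and 16.9%. In this comparison quantile normalization moved the median of all genes by 0.11, and the median of the ribosomal protein genes relative to that of all genes was 0.00 under both scalings.

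The risers against controls were Rpl14 (1.37 ± 0.29, adjusted p = 0.0019), Rps6 (1.04 ± 0.22, 0.00181), Rpl7l1 (0.83 ± 0.11, 5.7e-05), Rpl22l1 (0.57 ± 0.11, 0.000755) and Rpl12 (0.55 ± 0.12, 0.00184). Rpl37 (0.45 ± 0.09, adjusted p = 0.000784) and Rpsa (0.24 ± 0.05, 0.0017) rose as well. Rpl8 passed by little (0.19 ± 0.07, adjusted p = 0.0475) and was lost in 10 of 13 fits that left out 1 mouse (without any of lymphomas 4 to 8 or any control). Rps27l (0.45 ± 0.18, adjusted p = 0.06) and Rps19 (0.16 ± 0.08, 0.122) did not pass against controls. Rps27l did pass in 7 of 27 alternatives, with differences of 0.39 to 0.84 (adjusted p of 0.000636 to 0.0458). They include quantile normalization, mice 1 and 2 alone (0.84), mice 3 and up alone (0.39) and the fit with those sets as a block (0.54), and the fit without lymphoma 7 (0.53). Tested singly, 2 of its 3 probe sets rose against controls (0.50 ± 0.18, adjusted p = 0.0349, and 0.52 ± 0.19, 0.0396). Rps19 passed in 3 of 27 alternatives, namely quantile normalization (0.30, adjusted p = 0.00387), mice 1 and 2 alone (0.37, 0.012) and the block of mouse-number sets (0.18, 0.0244). In 6 genes every lymphoma was above every control, a pattern shown by 8.21% of all genes upwards and 12.0% downwards.

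The genes that fell against controls were all of the small subunit: Rps29 (-0.25 ± 0.07, adjusted p = 0.00836), Rps10 (-0.19 ± 0.05, 0.00406) and Rps7 (-0.14 ± 0.05, 0.0273), joined by Rps20, Rps28 and Rps3a1. They made up 30% of 20 tested small-subunit genes, beside 22.7% of all genes and 37.8% of all genes with a mean log2 signal of 12 or more. A probe set of the large-subunit gene Rpl13a, not the one used for the gene, fell as well (-0.14 ± 0.05, adjusted p = 0.0369). Rps20 lay at 5658, 6923 and 7305 in lymphomas, at 6510, 7060, 8161, 7316 and 7784 before transformation and at 7439, 7763, 8321, 8027 and 7298 in controls. Only lymphoma 1 reached the controls, and the difference of -0.21 ± 0.07 (adjusted p = 0.0232) did not pass without control 3 or 4. Rps28 lay at 7566, 8190 and 8589 in lymphomas, at 7776, 7925, 8852, 8622 and 8681 before transformation and at 8726, 8986, 9435, 9059 and 8615 in controls. Every lymphoma was below every control, by -0.14 ± 0.05 (adjusted p = 0.0366), and the call was lost without lymphoma 1, 4 or 8 or control 2, 3 or 4.

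Rps3a1 lay at 8203, 9285 and 9961 in lymphomas, at 9326, 9684, 9238, 8761 and 9009 before transformation and at 10371, 10280, 10116, 9926 and 10091 in controls. Lymphomas and mice before transformation overlapped, both lay under the controls apart from lymphoma 7, and the difference from controls was -0.14 ± 0.05 (adjusted p = 0.033). It was lost without lymphoma 4 or without control 1, 2, 3 or 5. Rps7 was lost without control 1, 2 or 3. With quantile normalization and with centred arrays none of the 6 falls was called, and Rps3a1 was 0.00 with quantile normalization. In 4 of the 6 every lymphoma was below every control. Left out singly, control 3 lowered the count of falls to 2 (2731 over all genes) and control 2 to 3 (2632), against 3184 over all genes with no mouse left out.

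In mice before transformation against controls no ribosomal protein gene rose or fell at an adjusted p under 0.05 in limma, beside 4.37% of all genes that rose and 6.18% that fell. At an unadjusted p under 0.05 none was higher and 4 were lower (Rps26, Rps3a1, Rps19 and Rplp2). Counts at an unadjusted p were made for lists only and not over all genes, so these 4 have no background beside them. The median difference was -0.03 over the 45 genes and -0.02 over all genes. Of the 45, 39 were smaller than 0.2 in size, beside 8728 of all 14019 genes, and the range was -0.67 to 0.11. The ends of the range were Rpl14 (-0.67 ± 0.33, adjusted p = 0.283), Rps6 (-0.66 ± 0.31, 0.256) and Rpl12 (0.11 ± 0.10, 0.62). In 4 genes, Rps26, Rps3a1, Rplp2 and Rpl37a, every mouse before transformation was below every control, a pattern shown by 6.24% of all genes. In none was every mouse above, a pattern shown by 4.32%.

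Rps26, a small-subunit protein gene, lay at 5991, 6545, 6846, 5961 and 5987 in mice before transformation and at 7302, 7166, 7263, 6868 and 7081 in controls, a difference of -0.19 ± 0.06 (adjusted p = 0.0548). Rps26 did pass in 6 of 23 alternatives (adjusted p of 0.0156 to 0.0471). Among the fits that left out 1 mouse, the count was highest without mouse 3 before transformation. There 4 genes fell, beside 954 of all 14019 genes. They were Rpl22l1 by 0.50 (adjusted p = 0.00526), Rpl37 by 0.45 (0.0135), Rps19 by 0.35 (0.00452) and Rps26 by 0.22 (0.0156) on the log2 scale. Without mouse 2 before transformation 2 genes fell, beside 1000 of all genes: Rps26 by 0.21 (adjusted p = 0.0454) and Rps3a1 by 0.16 (0.0467).

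Mice of a group varied little in the bright genes and more in the dim ones. The median SD of the log2 signal within a group was 0.08 for genes of 12 or more and 0.36 for those under 12 in lymphomas, 0.08 and 0.29 before transformation and 0.05 and 0.21 in controls, beside 0.29, 0.24 and 0.19 over all genes in the same groups. The largest SDs were those of Rpl14 in lymphomas (0.62), Rps6 before transformation (0.73) and Rpl14 in controls (0.49). The median deviation of the 10 genes under 12 from their means over all arrays was 0.66 and 0.73 in lymphomas 1 and 2, 0.09 to 0.42 in the other 6 lymphomas, -0.63 to -0.06 before transformation and -0.25 to -0.05 in controls. For the 35 bright genes the same median lay between -0.07 and 0.03 in lymphomas, -0.02 and 0.03 before transformation and -0.01 and 0.07 in controls. In 2 genes with a single probe set 1 mouse stood apart from its group. Rps2, a small-subunit protein gene, lay at 7481 in lymphoma 1 and at 8373 to 9061 in the other 7 lymphomas, at 7827, 7988, 8662, 7122 and 7244 before transformation and at 8309, 8046, 8169, 7565 and 8005 in controls. Rpl7a, a large-subunit protein gene, lay at 7607 to 9181 in lymphomas, at 9145, 9308, 8406, 9173 and 9111 before transformation and at 9309, 9098, 9130, 8770 and 9477 in controls, so that mouse 3 before transformation was the lowest of its group. Neither gene passed in any comparison. Rps2 did pass against controls without lymphomas 1 and 2 (0.12, adjusted p = 0.0431), and with quantile normalization against mice before transformation (0.27, 0.00484) and against controls (0.21, 0.00178). Without lymphomas 1 and 2, left out after the data were seen, 11 genes rose and 4 fell against mice before transformation, beside 21.1% and 21.8% of all genes, and 9 rose (20%) and 8 fell (17.8%) against controls, beside 24.5% and 27% of all genes.

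**Figure D4:**
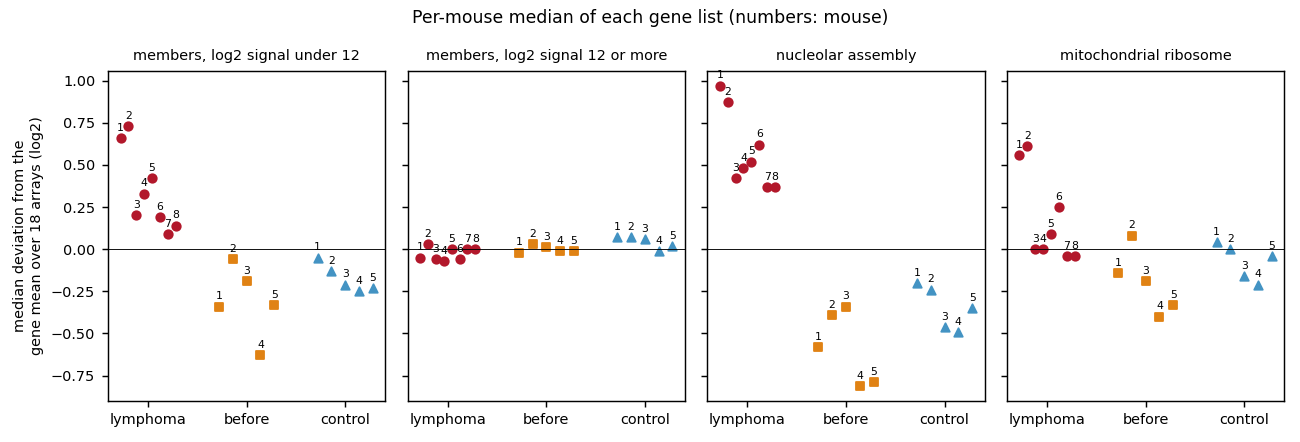
Median deviation of each list from its gene means over the 18 arrays (vertical axis, log2), for each lymphoma, mouse before transformation and control, numbered by mouse. The dim ribosomal protein genes reach 0.73 in lymphoma 2, the bright ones stay between -0.07 and 0.07 in all mice, and the nucleolar assembly list lies at 0.37 or more in every lymphoma and at -0.20 or less in every other mouse.

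Other genes of the ribosome pathway were read from lists, beside the shares of all genes given above (16.0% higher and 18.3% lower in lymphomas against mice before transformation, 17.4% and 22.7% in lymphomas against controls, 4.37% and 6.18% in mice before transformation against controls). Of 28 nucleolar assembly factors 25 rose and none fell in lymphomas against mice before transformation (26 and 0 at an unadjusted p under 0.05), with a median difference of 1.23. Among them were Nop16 (2.10 ± 0.18, adjusted p = 2.51e-06), Rrs1 (1.30 ± 0.11, 2.51e-06) and the rRNA methyltransferase Nop2 (1.24 ± 0.11, 4.67e-06). Against controls 25 rose and none fell too (the same counts unadjusted), with a median of 0.93. In mice before transformation against controls 2 fell, Wdr12 (-1.77 ± 0.16, adjusted p = 2.2e-05) and Rcl1 (-0.62 ± 0.15, 0.022), and the median was -0.21.

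Mitochondrial ribosomal proteins, which build the separate ribosome of the mitochondrion, rose in 35 (46.1%) and fell in 4 (5.26%) of 76 genes in lymphomas against mice before transformation, with a median of 0.39. Those with the smallest adjusted p were Mrpl28 (0.52 ± 0.09, adjusted p = 0.000746), Mrpl36 (0.73 ± 0.13, 0.000797) and Mrpl16 (0.92 ± 0.17, 0.00107). Against controls 22 rose (28.9%) and 3 fell (3.95%), with a median of 0.24, and before transformation against controls 4 fell (5.26%, near the 6.18% of all genes), with a median of -0.08.

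Of 17 other genes with TOP mRNAs, most of which encode translation factors, 9 rose and 1 fell in lymphomas against mice before transformation, with a median of 0.39. The initiation factor gene Eif4b (1.01 ± 0.11, adjusted p = 2.06e-05), the elongation factor gene Eef1b2 (0.43 ± 0.07, 0.000518) and the poly(A)-binding protein gene Pabpc1 (0.62 ± 0.12, 0.000959) rose. Against controls 7 rose and 1 fell (median 0.23). In mice before transformation against controls Eif4a2 rose (0.60 ± 0.10, adjusted p = 0.00148) and Eif4b fell (-0.40 ± 0.11, 0.039).

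Among 12 genes of mTOR signalling, 2 rose (16.7%) and 3 fell (25%) in lymphomas against mice before transformation, near the shares of all genes. Larp1 rose (0.88 ± 0.10, adjusted p = 1.79e-05), while Tsc1, part of the complex that restrains mTOR (-0.76 ± 0.12, 0.000346), and the S6 kinase gene Rps6kb2 (-0.81 ± 0.16, 0.00177) fell. Against controls 4 rose and 3 fell, with Larp1 at 0.62 ± 0.08 (adjusted p = 2.93e-05), and before transformation against controls none was called by limma (2 were lower at an unadjusted p under 0.05, Eif4ebp2 and Larp1). Fau, a small-subunit protein gene whose symbol does not have the Rps form, did not pass in any comparison (-0.13, -0.15 and -0.02 for lymphomas against mice before transformation, lymphomas against controls and mice before transformation against controls). These counts describe each list, and no difference between lists was tested.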

How the data were processed

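Total RNA of 18 mice was read on 1 Affymetrix array each. The deposited values are linear probe-set intensity values produced by the authors in dChip (per the design text of the series). The sources used here do not give its version, model or scaling, and the table has no detection calls. Of all values 1.20% were blank and 606 negative; these and low values were raised to the 20th percentile (53.5) before log2 was taken. The medians of the arrays spanned 0.41 (log2), under the limit of 0.5 for rescaling. Arrays are limited in precision by their number.

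Gene symbols came from the platform's annotation table (34945 with 1 symbol, 932 with several, 9211 with none, which were not used), and all 49 genes matched RefSeq. Genes above the 40th percentile (109) on at least 5 arrays were tested. Each comparison was fitted on its 2 groups with limma 3.58.1 (R 4.3.3) with an intensity trend, two-sided, with Benjamini-Hochberg adjustment over 14019 genes. Errors are SE for differences and SD for means. The mice are independent per the series' design text. The p-values set the difference between groups against the variance between mice, which limma moderates with the intensity trend.

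The genes and lists were chosen with earlier results of these data known. Values by mouse (the 5 mice of a group singly, the 8 lymphomas by their lowest, median and highest) are given for the 6 largest rises and falls among called genes of a comparison, for paralog pairs, for Rpl11, the stalk genes, Rpsa and Rps6, and for genes in which 1 mouse lay apart in all probe sets, and up to 3 genes with the smallest adjusted p are named per list; Rps19 and Rps26 were added after their values were seen. Alternatives covered scaling, floor, filter, samples in the fit, trend, choice of probe set, mouse numbers and each mouse left out. Promoter windows are from RefSeq (GRCm38.p6), and genes with several windows count as holding a motif where any window does. Figures were drawn with matplotlib 3.10.9, and counts of motifs made with Python 3.11.15.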

Additional observations from a re-analysis of the deposited data

Results flagged for a closer look

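In 5 of the 135 sets of values formed by 45 genes and 3 groups, 1 mouse lay apart from the others of its group by Dixon's test on the log2 signal, where chance alone flags about 1 in 20 sets. Lymphoma 6 had the lowest signal of Rps7 among lymphomas (12.96, with the next at 13.08), and lymphoma 1 the lowest of Rps2, a small-subunit protein (12.87, with the next at 13.03). Mouse 3 before transformation had the lowest signal of Rpl7a in its group (13.04, next 13.15), and mouse 2 before transformation the highest of Rps4x (13.14, next 13.05). Control 5 had the lowest signal of Rpl27a among controls (8.47, next 9.16). The 5 deviations lie in 5 mice and 5 genes.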

How the results depend on the processing

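The rises of Rpl14, Rps6, Rpl22l1, Rpl7l1, Rpl37, Rps19 and Rps27l against mice before transformation, and of Rpl14, Rps6, Rpl22l1, Rpl7l1, Rpl37, Rpl12 and Rpsa against controls, held their call in every alternative run (Rpl37 has no probe set outside the _s_at and _x_at classes); those of Rpl12 and Rpsa against mice before transformation ended only with mice 1 and 2 alone. The cause of the changes below was not tested.
In lymphomas against mice before transformation, quantile normalization gave 18 higher and 0 lower with a median of 0.16, and centred arrays 0 lower with a median of 0.08. Falls over all genes are given in brackets and numbered 2572 in the main setting. The number of falls was 1 without a filter (2560), 5 with all 3 groups in 1 fit (2964) and 0 without the intensity trend (2561). It was 1 with the mean of all probe sets (2403) and 1 with mice 1 and 2 alone (1175). The median was 0.08 without _s_at and _x_at probe sets, 0.14 with the mean of all probe sets and 0.07 with mice 1 and 2 alone. Leaving out 1 mouse gave 9 to 11 higher and 2 to 4 lower, with medians of -0.01 to 0.02. Over all genes these fits gave 1731 to 2420 higher and 1977 to 2764 lower.
In lymphomas against controls, quantile normalization gave 18 higher and 0 lower with a median of 0.09, and centred arrays 0 lower with a median of 0.06. Falls numbered 3 without a filter (3277 over all genes, against 3184 in the main setting), 1 without the intensity trend (3153) and 3 with the mean of all probe sets (2950). They numbered 2 with mice 1 and 2 alone (2048) and 3 with mice 3 and up (2947). The median was 0.02 without _s_at and _x_at probe sets and 0.09 with the mean of all probe sets. Leaving out 1 mouse gave 7 to 8 higher and 2 to 8 lower, with medians of -0.05 to -0.02. Over all genes these fits gave 1997 to 2699 higher and 2632 to 3396 lower.
In mice before transformation against controls, 1 gene fell with quantile normalization (811 over all genes, against 867 in the main setting). The filter at the median signal gave 1 fall (859) and the mean of all probe sets 1 (935). With mice 1 and 2 set against higher numbers as a block 2 fell (1191), and with mice 1 and 2 alone 2 (643). Leaving out 1 mouse gave 0 higher and 0 to 4 lower, with medians of -0.04 to -0.02. Over all genes these fits gave 501 to 642 higher and 633 to 1000 lower.
With the mouse number as a replicate block, 10 genes rose and 2 fell in lymphomas against mice before transformation (2387 and 2560 of all genes). In lymphomas against controls 9 rose and 2 fell (2170 and 2753), and before transformation against controls 0 rose and 0 fell (611 and 837). The labels state no pairing. Deviations of same-numbered mice from their group means correlated at r of -0.143 to 0.408, and 3, 3 and 2 of 10 mice correlated best with their own number in mice before transformation against controls, lymphomas against mice before transformation and lymphomas against controls.
The sign differed from the main setting in 9 values that were called in 1 of the 2 fits. Only Rps20 and Rps3a1 against controls had been called in the main setting. Neither was called in the alternative (adjusted p = 0.736 and 0.981). With the mean of all probe sets Rpl13a was 0.15, Rpl22 0.31 and Rps3 0.53 against mice before transformation, and Rpl37a 0.39, Rps20 0.06 and Rps3 0.46 against controls. With quantile normalization Rpl41 was 0.12 and Rps3a1 0.00 against controls, and without _s_at and _x_at probe sets Rps24 was 0.73 against controls.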
